A study of Homo sapiens with 12 samples.

Results

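The genes described here are 9 direct transcriptional targets of p53, namely CDKN1A, MDM2, GADD45A, FAS, TP53I3, SESN1, ZMAT3, RRM2B and PPM1D, in Huh7 cells. They were picked by name, as the rows of a count table of 63677 genes whose symbol is 1 of these 9. Genes that reached 10 counts in 3 or more samples were tested, 17092 in all, and 8 of the 9 were among them. FAS was not and is described by its counts. Huh7 is a hepatocellular carcinoma line.

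RNA from 12 samples in 4 groups of 3 was sequenced, and all groups were the same line. The groups were untreated cells in medium only and cells given GO (graphene oxide) at 400 µg/mL, GO-Rg3 (graphene oxide conjugated with ginsenoside Rg3, a saponin of ginseng) at 400 µg/mL, or GO-Rg3-DOX (the same conjugate loaded with doxorubicin, an anthracycline that poisons topoisomerase II and damages DNA) at 100 µg/mL, each for 6 h. The conjugate with doxorubicin was thus given at a lower dose than the one without it, so those groups are set side by side and not compared, and what doxorubicin, carrier and dose each contribute cannot be told apart. The labels call the 3 samples of a group replicates without saying whether they were separate cultures, so the p-values measure the spread between these samples, which may be technical.

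Counts per sample ran from 27802871 to 38877420. Mitochondrially encoded genes took 5.31% to 6.28% of them in untreated cells, 12.1% to 24.1% after GO, 6.89% to 7.42% after GO-Rg3 and 12.8% to 19.4% after GO-Rg3-DOX. GO replicate 1, at 24.1%, stood apart from the other GO samples (12.1% and 14.8%), and values without it are given where a result rests on it. The hepatocyte markers ALB and AFP were high in every sample, at 2301 to 6892 and 4801 to 16540 CPM (counts per 1000000 of the library's counts, scaled here by TMM factors). Defining genes of other cell types were at or near 0, with 6 counts of the leukocyte gene PTPRC, 0 of the endothelial gene PECAM1, 2 of the squamous gene KRT5 and 104 of the fibroblast gene COL1A1 over the 12 samples together.

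p53 is a transcription factor that binds DNA as a tetramer and switches on genes for cell cycle arrest, DNA repair, cell death and metabolism after DNA damage and other stresses. Some of its targets restrain it in turn, above all MDM2, the ubiquitin ligase that marks p53 for degradation, so that p53 and MDM2 form a negative feedback loop. Many of its target genes also answer to other regulators.

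To describe the sequence near these genes, the GRCh37 genome was searched for the p53 response element. The window was 5 kb on each side of the start of each gene's canonical transcript (for FAS, of the gene record). The element is a pair of adjacent 10-base units, each with purines, a core of C, A or T at both middle positions and G, and then pyrimidines. Up to 2 mismatches were allowed over the 20 bases, with the C and G of both cores intact, and since the consensus reads alike on both strands it was searched once; no other motif was searched. Of the 9 genes, 6 held such a match, against 1015 of 13344 protein-coding tested genes searched in the same way (7.61%). The matches of 5 of them are printed 5′ to 3′ on the gene's own strand, with the 4-base core of each unit in capitals:
CDKN1A: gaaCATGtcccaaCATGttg
GADD45A: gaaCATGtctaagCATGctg
MDM2: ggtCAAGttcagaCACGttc
ZMAT3: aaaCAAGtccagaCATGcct
FAS: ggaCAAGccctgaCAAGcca

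The CDKN1A match, on chr6:36644226-36644245 of the plus strand, lay upstream of the canonical start, at position -2255 bases from it, and had 2 mismatches. That of GADD45A was in intron 3 at chr1:68152458-68152477 (plus strand), 1584 bases into the gene, with 1 mismatch. In MDM2 the match was in intron 1 at chr12:69202703-69202722 (plus strand), 756 bases downstream of the start, with 2 mismatches. ZMAT3 held the only match among the 9 without a mismatch, in intron 1 at chr3:178787976-178787995 (minus strand); such exact matches occurred near 17 of the 13344 genes (0.13%). The FAS match, at chr10:90751066-90751085 (plus strand) and 662 bases downstream of the start, overlapped an exon of an annotated transcript and had 2 mismatches. No canonical transcript was marked for FAS, so exons of all its transcripts were used. The intron labels of the other genes refer to the canonical transcript, so the labels are not alike. RRM2B had 1 match with 1 mismatch in intron 1, and PPM1D, SESN1 and TP53I3 had none of these letters in the window. A match is a description of the sequence and does not show that p53 was bound there. As these genes were picked as p53 targets, their share of matches beside that of other genes is not a test.

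After GO-Rg3-DOX, 6 of the 8 tested genes fell and 1 rose, while 25.5% of all tested genes rose and 30.5% fell in that comparison. The genes that fell were PPM1D, MDM2, SESN1, ZMAT3, RRM2B and GADD45A, TP53I3 rose, and CDKN1A did not pass. For 4 of them, PPM1D, MDM2, SESN1 and ZMAT3, the log2 fold change was also below -1, which 18.2% of all tested genes reached. The median log2 fold change of the 8 genes was -1.03 and that of all tested genes was -0.06. A gene was taken to pass at an adjusted p below 0.01 in the quasi-likelihood test of edgeR, with p-values adjusted over all 17092 genes by the Benjamini-Hochberg method. Scaling by library totals alone lowered the median of all genes to -0.47 and the share of rises among the calls from 45.5% to 22.8%. Under it 6 of the 8 genes fell and 0 rose, when 7293 of the 17092 tested genes fell and 2152 rose. DESeq2 called 7 of the 8 in either direction, when it called 4901 rises and 4966 falls over all tested genes. Mitochondrial shares were also higher in these samples than in untreated cells, and their part in the result was not tested. In such bulk samples fewer cells of a kind and less RNA per cell cannot be told apart.

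After GO, 1 of the 8 genes, PPM1D, fell and 0 rose, when 15.4% of all tested genes fell and 12.1% rose. The same count was given by DESeq2, and 2 genes, PPM1D and MDM2, were at an unadjusted p under 0.05. After GO-Rg3, 0 of the 8 passed in edgeR's test in either direction, when 0.0585% of all tested genes rose and 0.105% fell. CDKN1A and MDM2 were at an unadjusted p under 0.05 there, and DESeq2 called 1 gene, CDKN1A. Between GO-Rg3 and GO, which were given at the same dose, 1 of the 8, CDKN1A, was lower with Rg3, and 7.33% of all tested genes were higher and 6.25% lower. The 3 comparisons with untreated cells share the same untreated samples. With library totals alone the share of rises among the calls went from 44.01% to 30.55% after GO, from 35.7% to 16.7% after GO-Rg3, and from 54.0% to 71.2% between GO-Rg3 and GO.

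**Figure D1:**
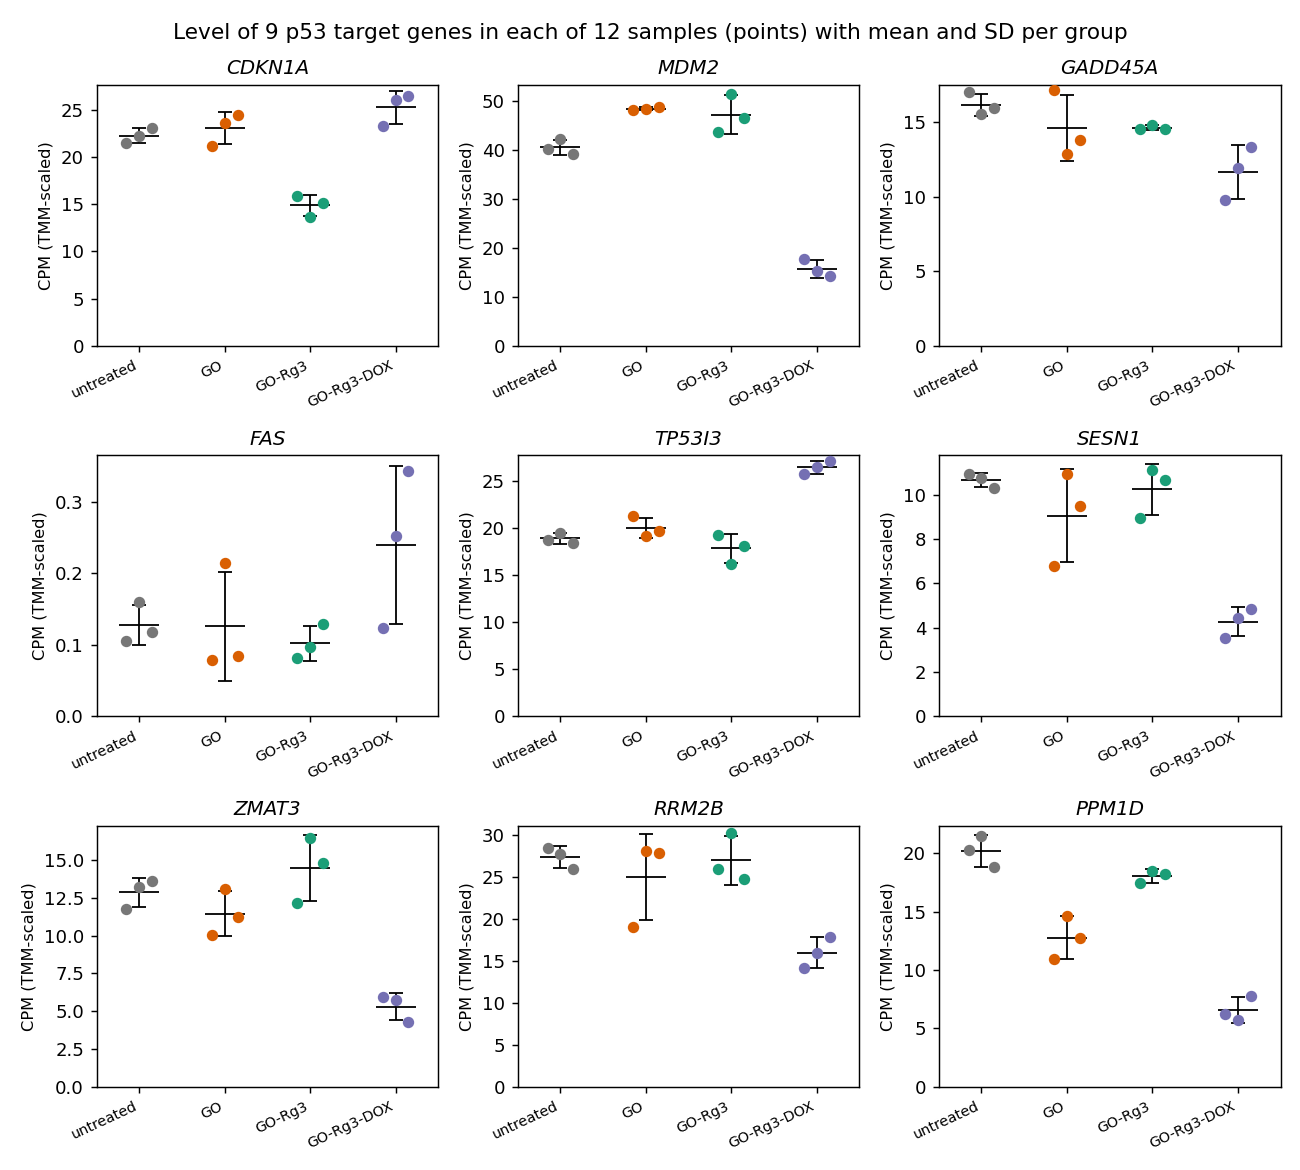
Level of each of the 9 genes in CPM (y axis, from 0, TMM-scaled) in the 4 groups (x axis). Points are samples, and the horizontal mark and bars are the mean and SD of 3 samples. MDM2 lies between 14.2 and 17.7 CPM in the GO-Rg3-DOX samples and between 39.2 and 51.3 CPM in all others, and CDKN1A is lowest in the GO-Rg3 samples.

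MDM2, the ubiquitin ligase of the feedback loop, lies on chromosome 12 from 69201957 to 69239324. Its level was 40.2, 42.1 and 39.2 CPM in the untreated samples (replicates 1 to 3), 48.0, 48.3 and 48.7 CPM after GO, 43.6, 51.3 and 46.6 CPM after GO-Rg3 and 17.7, 15.3 and 14.2 CPM after GO-Rg3-DOX. The GO-Rg3-DOX samples were below all others, and both carrier groups lay above the untreated samples without overlap. After GO-Rg3-DOX the gene fell to 0.388 times its untreated level, a log2 fold change of -1.36 (SE 0.10, adjusted p = 2.71e-08). The differences of 0.26 after GO (SE 0.10, adjusted p = 0.0508) and 0.22 after GO-Rg3 (SE 0.10, adjusted p = 0.349) on the log2 scale did not pass. With an offset for transcript GC content the GO difference was 0.60 and passed (adjusted p = 0.000169), and the GO-Rg3-DOX difference was -0.82 (adjusted p = 3.16e-06). MDM2 shares its region with CPM, a carboxypeptidase gene on the opposite strand with 9541 counts over the 12 samples, and since the counting options are not given in the sources used here, reads of this pair may have been exchanged.

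PPM1D encodes WIP1, a phosphatase that removes activating phosphates from p53 and from the kinases upstream of it. The gene spans chromosome 17 from 58677554 to 58743641. It was measured at 20.2, 21.5 and 18.8 CPM in the untreated samples, 10.97, 14.7 and 12.7 CPM after GO, 17.4, 18.5 and 18.2 CPM after GO-Rg3 and 6.22, 5.68 and 7.78 CPM after GO-Rg3-DOX. The 4 groups did not overlap, with untreated cells highest, then GO-Rg3, GO and GO-Rg3-DOX. PPM1D fell after GO by 0.66 on the log2 scale (SE 0.13, adjusted p = 0.00105), and without GO replicate 1, its lowest GO sample, it still fell by 0.56 (adjusted p = 0.00292). After GO-Rg3-DOX it had the lowest log2 fold change of the 8 genes, -1.62 (SE 0.14, adjusted p = 7.71e-08), which is 0.325 times the untreated level. GO-Rg3 differed from untreated cells by -0.16 (SE 0.13, adjusted p = 0.652) and from GO by 0.49 (SE 0.13, adjusted p = 0.012), and neither passed. The second of these did pass in DESeq2 (adjusted p = 0.00178) and without GO replicate 2 (adjusted p = 0.00677). It also passed without the filter, with the labels' replicate number as a block, with an offset for transcript GC content, and with offset and block. MDM2 and PPM1D, which both act against p53, thus both fell after GO-Rg3-DOX, while after GO only PPM1D passed.

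CDKN1A encodes p21, the inhibitor of cyclin-dependent kinases through which p53 stops the cell cycle. It lies on chromosome 6 from 36644237 to 36655114. Its level was 21.4, 22.2 and 23.0 CPM in the untreated samples, 21.2, 23.6 and 24.4 CPM after GO, 15.8, 13.6 and 15.1 CPM after GO-Rg3 and 23.3, 26.02 and 26.4 CPM after GO-Rg3-DOX. The GO-Rg3 samples were the lowest of the 12 and did not overlap with any other group. CDKN1A was lower after GO-Rg3 than after GO at the same dose, with a log2 fold change of -0.63 (SE 0.10, adjusted p = 0.000598). This call was lost with library totals alone (-0.49, adjusted p = 0.0249) and in a fit of only the 6 samples compared (-0.64, adjusted p = 0.0153). Against untreated cells the difference was of like size, -0.58 (SE 0.10), but did not pass (adjusted p = 0.0176). It passed in DESeq2 (-0.55, adjusted p = 7.03e-05) and, in edgeR's test, without the filter (adjusted p = 0.00237), with the labels' replicate number as a block (0.0085), with an offset for each gene's GC content, called the GC offset (0.00347) and with offset and block (0.00129), and under the other alternatives the adjusted p was 0.0178 to 0.116.

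After GO-Rg3-DOX, CDKN1A lay above the untreated samples without overlap, but by only 0.18 on the log2 scale (SE 0.10, adjusted p = 0.123). The sign of this difference turned with library totals alone (-0.23) and with the GC offset (-0.09). GO differed from untreated cells by 0.05 (SE 0.10, adjusted p = 0.691) and overlapped with them. The levels after GO-Rg3-DOX at 100 µg/mL and after GO-Rg3 at 400 µg/mL, 23.3 to 26.4 and 13.6 to 15.8 CPM, are given side by side only.

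GADD45A, on chromosome 1 from 68150884 to 68154017, encodes a small stress protein that acts in arrest at the G2/M boundary and in DNA repair. It was at 17.0, 15.6 and 15.9 CPM in the untreated samples, 17.2, 12.9 and 13.8 CPM after GO, 14.5, 14.9 and 14.5 CPM after GO-Rg3 and 9.76, 11.97 and 13.3 CPM after GO-Rg3-DOX. The GO-Rg3-DOX samples were below every untreated sample and overlapped with the GO samples. GADD45A fell after GO-Rg3-DOX by 0.47 on the log2 scale (SE 0.13, adjusted p = 0.0055). The call did not hold with RLE scaling (adjusted p = 0.0114) or when any untreated sample or GO-Rg3-DOX replicate 1 or 2 was left out (adjusted p from 0.012 to 0.0361). GO and GO-Rg3 differed from untreated cells by -0.15 and -0.14, with adjusted p-values of 0.366 and 0.693.

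SESN1, ZMAT3 and TP53I3 are targets with roles in redox balance, growth and RNA control. SESN1, on chromosome 6 from 109305512 to 109416049, encodes sestrin 1, which restrains mTORC1 signalling and takes part in the antioxidant response. Its level was 10.9, 10.7 and 10.3 CPM in the untreated samples, 6.78, 10.9 and 9.48 CPM after GO, 8.95, 11.1 and 10.7 CPM after GO-Rg3 and 3.54, 4.42 and 4.84 CPM after GO-Rg3-DOX. The GO-Rg3-DOX samples were below all others, and GO replicate 1 was the lowest of the remaining 9. SESN1 fell to 0.402 times the untreated level after GO-Rg3-DOX (log2 fold change -1.32, SE 0.17, adjusted p = 6.87e-06). In the GO samples the difference was -0.23 (SE 0.16, adjusted p = 0.268), and without replicate 1 it was -0.06.

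ZMAT3, on chromosome 3 from 178677909 to 178790003, encodes a zinc finger protein that binds RNA and affects splicing and RNA stability. It measured 11.8, 13.2 and 13.6 CPM in the untreated samples, 10.1, 13.1 and 11.2 CPM after GO, 12.2, 16.5 and 14.8 CPM after GO-Rg3 and 5.93, 5.71 and 4.27 CPM after GO-Rg3-DOX. Only the GO-Rg3-DOX samples lay apart from the others. The log2 fold change there was -1.28 (SE 0.16, adjusted p = 3.83e-06), against -0.16 after GO (adjusted p = 0.393) and 0.17 after GO-Rg3 (adjusted p = 0.68). ZMAT3 thus fell in the comparison in which MDM2 and PPM1D fell.

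TP53I3, also called PIG3, encodes a quinone oxidoreductase linked to the formation of reactive oxygen species in p53-dependent cell death, and lies on chromosome 2 from 24300303 to 24308731. Its level was 18.8, 19.5 and 18.4 CPM in the untreated samples, 21.2, 19.1 and 19.6 CPM after GO, 19.3, 16.2 and 18.0 CPM after GO-Rg3 and 25.8, 26.4 and 27.2 CPM after GO-Rg3-DOX. The GO-Rg3-DOX samples were the highest of the 12. TP53I3 was the only 1 of the 8 genes to rise after GO-Rg3-DOX, to 1.4 times the untreated level (log2 fold change 0.49, SE 0.10, adjusted p = 0.000448). The call was lost with the GC offset (0.11, adjusted p = 0.21), with library totals alone (0.07, adjusted p = 0.631, where the median of all genes was -0.47) and without the filter (0.40, adjusted p = 0.0115). The gene overlaps FAM228B on the opposite strand, which had 198 counts over the 12 samples.

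RRM2B, on chromosome 8 from 103216730 to 103251189, encodes the p53-inducible small subunit of ribonucleotide reductase, the enzyme that supplies deoxynucleotides for DNA repair and for mitochondrial DNA. It was at 28.4, 27.7 and 25.9 CPM in the untreated samples, 19.1, 28.1 and 27.8 CPM after GO, 25.9, 30.3 and 24.8 CPM after GO-Rg3 and 14.2, 15.9 and 17.8 CPM after GO-Rg3-DOX. The GO-Rg3-DOX samples were below all others, and GO replicate 1 was again the lowest of the rest. RRM2B fell after GO-Rg3-DOX by 0.77 on the log2 scale (SE 0.14, adjusted p = 0.000229), a call that was lost with the GC offset (-0.04, adjusted p = 0.665). The GO difference of -0.13 (adjusted p = 0.497) became 0.03 without GO replicate 1 and 0.33 with the GC offset, which passed there (adjusted p = 0.00245).

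FAS, the death receptor that starts the extrinsic pathway of apoptosis, spans chromosome 10 from 90750414 to 90775542. It had 4, 5 and 5 counts in untreated cells, 2, 8 and 3 after GO, 3, 3 and 5 after GO-Rg3 and 3, 7 and 9 after GO-Rg3-DOX. All 12 samples were thus below 10 counts, and the groups overlapped. In a fit without the filter the difference after GO-Rg3-DOX was 0.84 on the log2 scale (SE 0.63, adjusted p = 0.332), so no change was detectable at this depth. ACTA2 overlaps FAS on the opposite strand and had 55 counts in all.

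**Figure D2:**
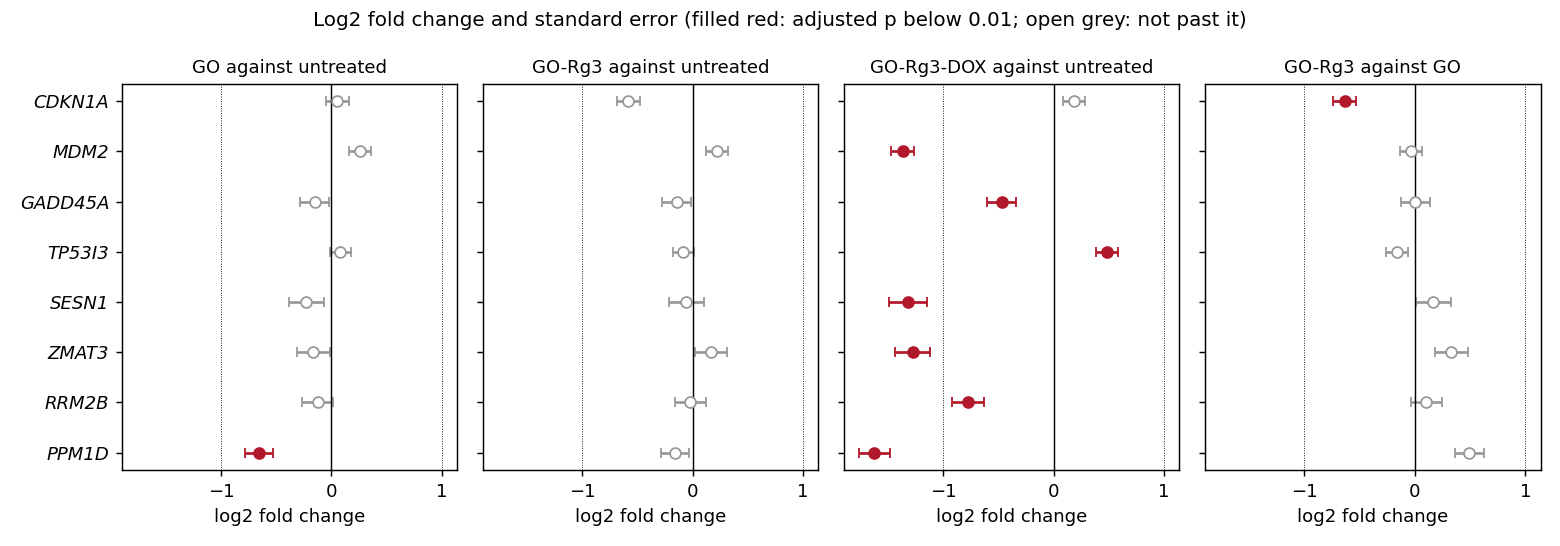
Log2 fold change (x axis) of the 8 tested genes (y axis) in the 4 comparisons (panels), with bars of 1 standard error. Filled red points passed at an adjusted p below 0.01, open grey points did not, and dotted lines mark -1 and 1. In the GO-Rg3-DOX panel 6 genes lie to the left of 0 and pass, TP53I3 passes on the right, and CDKN1A, at 0.18, is open and turned its sign with library totals alone and with the GC offset.

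MDM4, the relative of MDM2 that blocks the activation domain of p53, went in opposite directions in the GO and GO-Rg3-DOX groups. Its level was 20.7, 23.9 and 23.6 CPM in the untreated samples, 45.1, 33.5 and 33.6 CPM after GO, 23.8, 31.8 and 28.1 CPM after GO-Rg3 and 11.6, 13.6 and 10.5 CPM after GO-Rg3-DOX. The GO samples were above and the GO-Rg3-DOX samples below every untreated sample. MDM4 rose after GO by 0.72 on the log2 scale (SE 0.14, adjusted p = 0.00112), and by 0.56 without GO replicate 1, its highest sample (adjusted p = 0.00327). It fell after GO-Rg3-DOX by 0.93 (SE 0.15, adjusted p = 5.32e-05). The difference between GO-Rg3 and GO, -0.42 (SE 0.14, adjusted p = 0.0399), did not pass, though it did with the GC offset (-0.60, adjusted p = 0.00387). These are RNA levels, and protein was not measured in these files.

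**Figure D3:**
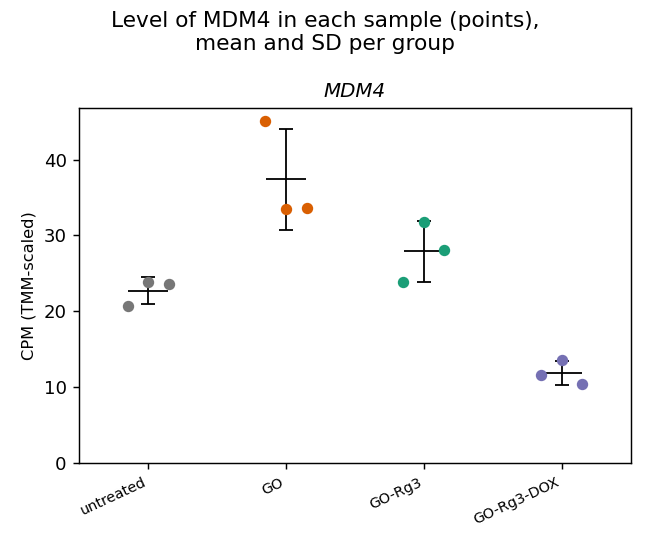
Level of MDM4 in CPM (y axis, from 0, TMM-scaled) in the 4 groups (x axis), with samples as points and the mean and SD of 3 samples as marks and bars. MDM4 lies highest after GO, at 33.5 to 45.1 CPM, and lowest after GO-Rg3-DOX, at 10.5 to 13.6 CPM.

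A list of 28 other p53 target genes in 3 roles was examined beside the 9, and 26 of them were tested (PHLDA3 and SPATA18 were not, with 2 and 13 counts in all). After GO-Rg3-DOX 10 of the 26 rose and 7 fell, when 25.5% of all tested genes rose and 30.5% fell, with a median log2 fold change of -0.16 against -0.06 for all genes. With library totals alone 4 rose and 12 fell, when 2152 of the 17092 tested genes rose and 7293 fell. After GO 7 rose and 4 fell, against 12.1% and 15.4% of all genes (median 0.23 against 0.01), and 6 and 3 did so without GO replicate 1. The median after GO was 0.11 with library totals alone (6 rose and 4 fell, beside 1223 and 2780 of the 17092 tested genes). With the GC offset it was also 0.11 (8 rose and 5 fell, beside 2541 and 2568). After GO-Rg3 0 of the 26 passed in edgeR's test, when 0.0585% of all tested genes rose and 0.105% fell. In that comparison 3 were at an unadjusted p under 0.05 and DESeq2 called 1. Between GO-Rg3 and GO 3 were higher and 6 lower, against 7.33% and 6.25% of all genes.

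Of the 11 tested genes of cell death, 7 rose and 2 fell after GO-Rg3-DOX, beside 25.5% and 30.5% of all tested genes, with a median of 0.62 against -0.06. Library totals alone left 2 rises and 3 falls, when 2152 of the 17092 tested genes rose and 7293 fell. The GC offset gave 7 and 3, when 5312 of the tested genes rose and 4783 fell. PIDD1, which builds the PIDDosome that activates caspase-2, went from 6.95 ± 1.04 to 26.1 ± 3.18 CPM (SD, n = 3), a log2 fold change of 1.91 (SE 0.22, adjusted p = 1.63e-06). FDXR, a mitochondrial ferredoxin reductase, rose by 1.21 (SE 0.17, adjusted p = 1.61e-05). TRIAP1, a lipid transfer chaperone of the mitochondrial intermembrane space that counters apoptosis, fell from 23.0 ± 1.08 to 7.70 ± 1.15 CPM (SD, n = 3), a log2 fold change of -1.58 (SE 0.14, adjusted p = 1.05e-07).

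Among the 8 genes of arrest and repair, 3 rose and 2 fell after GO-Rg3-DOX (median -0.19), a split near that of all tested genes (25.5% and 30.5%). With library totals alone 2 rose and 4 fell, beside 2152 and 7293 of the 17092 tested genes. With the GC offset 4 rose and 3 fell, beside 5312 and 4783 of the tested genes. POLH, the polymerase that copies past ultraviolet lesions, fell by 1.61 on the log2 scale (SE 0.13, adjusted p = 3.6e-08). BTG2, an antiproliferative factor that promotes deadenylation, rose by 1.08 (SE 0.13, adjusted p = 2.23e-06). PLK2, a polo-like kinase, rose by 0.83 (SE 0.13, adjusted p = 3.4e-05), a call lost with library totals alone (0.42, adjusted p = 0.0246).

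In the group of metabolism, autophagy and growth 0 of 7 tested genes rose and 3 fell after GO-Rg3-DOX (median -0.28), beside 25.5% and 30.5% of all tested genes, with 4 at an unadjusted p under 0.05. By DESeq2 the split was also 0 and 3, beside 4901 rises and 4966 falls among the 17092 tested genes. With the GC offset it was 0 and 3 as well, beside 5312 and 4783. With library totals alone it was 0 and 5 (median -0.69), beside 2152 and 7293. TIGAR, a phosphatase that lowers glycolytic flux, fell by 0.87 (SE 0.11, adjusted p = 6.39e-06), and SESN2, the stress-inducible relative of SESN1, fell by 0.66 (SE 0.13, adjusted p = 0.000312). RPS27L, a ribosomal protein homologue, fell by 0.69 (SE 0.19, adjusted p = 0.00475), a call that was lost when any 1 of the 6 samples compared was left out (adjusted p from 0.0108 to 0.0259) or with the GC offset (adjusted p = 0.251). SESN1 and SESN2 therefore both fell in this comparison.

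The 11 other targets that passed after GO, 7 higher and 4 lower, are all named here, a choice made after their values were seen. TP53INP1, which promotes autophagy and cell death, rose from 7.53 ± 0.567 CPM to 20.95 ± 1.87 CPM (SD, n = 3), a log2 fold change of 1.48 (SE 0.15, adjusted p = 5.54e-06). BBC3, which encodes the BH3-only protein PUMA, measured 1.53, 1.47 and 1.13 CPM in the untreated samples and 5.99, 3.13 and 3.40 CPM in the GO samples, a log2 fold change of 1.58 (SE 0.32, adjusted p = 0.0011). In the GO-Rg3-DOX samples BBC3 was at 0.824, 0.324 and 0.496 CPM (log2 fold change -1.34, SE 0.42, adjusted p = 0.011), below every untreated sample but not past the test. GDF15, SESN2, BTG2, DDB2 and PERP also rose after GO, by 1.14, 0.97, 0.80, 0.75 and 0.33. CCNG1, which encodes cyclin G1, fell by 0.84 (SE 0.11, adjusted p = 5.05e-05), and TRIAP1 fell by 0.76 (SE 0.13, adjusted p = 0.00038). RPS27L fell by 0.69 (SE 0.19, adjusted p = 0.00875), and XPC, which recognises lesions for nucleotide excision repair, fell by 0.54 (SE 0.14, adjusted p = 0.00751). Without GO replicate 1 the calls of PERP (adjusted p = 0.013) and XPC (-0.37, adjusted p = 0.0175) were lost and the other 9 held. The PERP call was lost when any 1 of the 6 samples compared was left out, and those of RPS27L and XPC in 5 of the 6 cases each. Over all 15 alternatives the PERP difference after GO was 0.21 to 0.64, with adjusted p-values up to 0.095. That of RPS27L was -0.99 to -0.41 (up to 0.1) and that of XPC -0.64 to -0.37 (up to 0.025). SESN2 was thus higher after GO and lower after GO-Rg3-DOX than in untreated cells, the same pair of directions as MDM4, whereas SESN1 passed only after GO-Rg3-DOX.

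**Figure D4:**
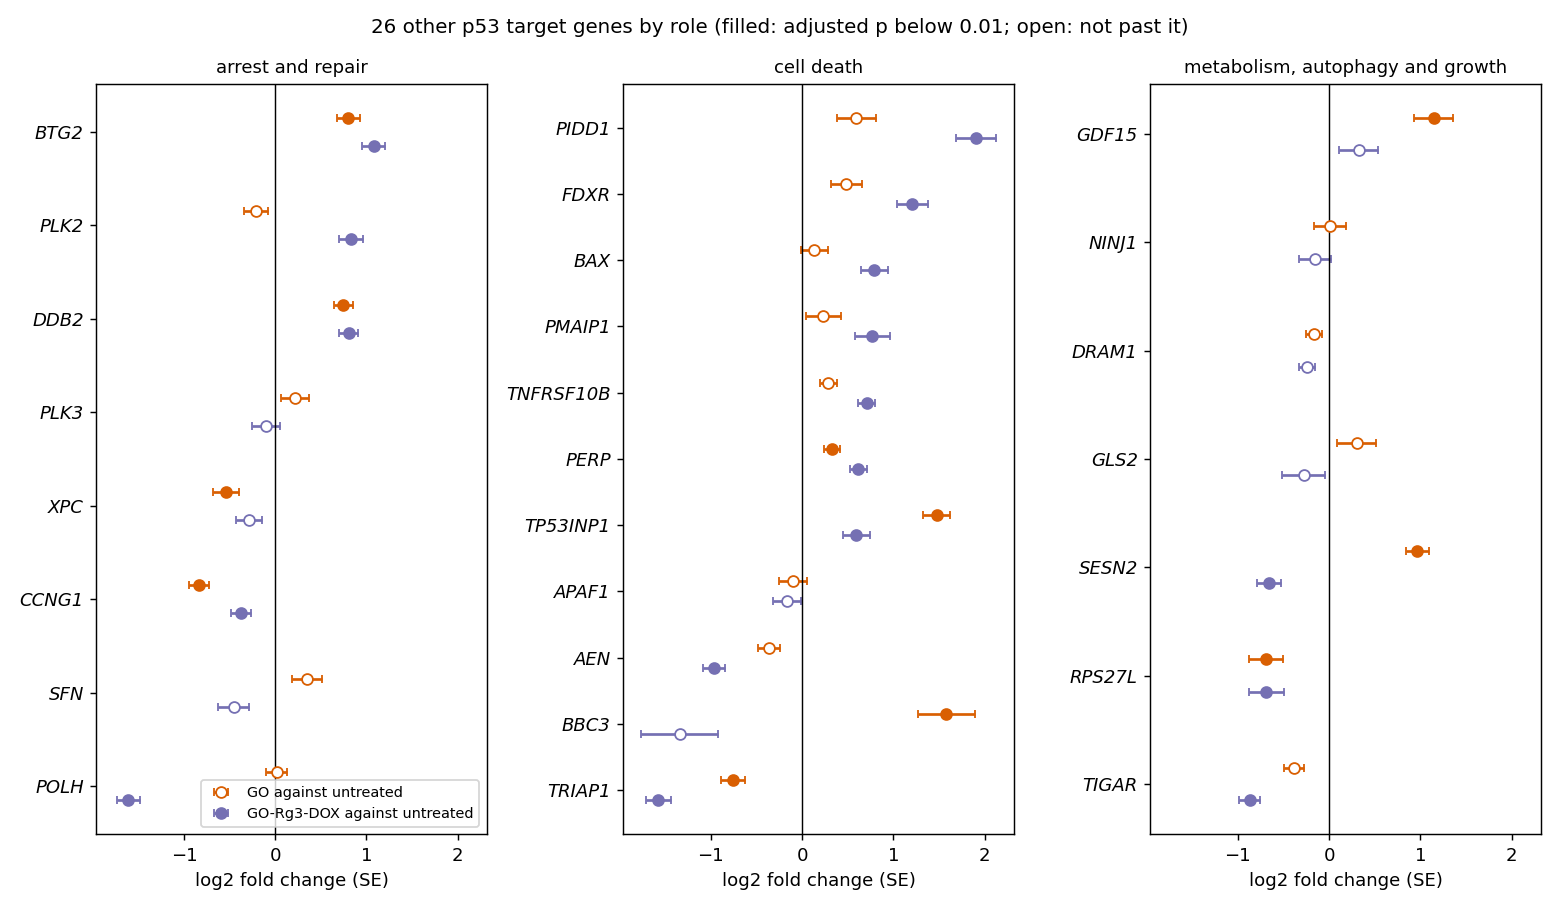
Log2 fold change with bars of 1 standard error (x axis) of the 26 other p53 target genes (y axis), in 3 panels by role, after GO (orange) and after GO-Rg3-DOX (purple), each against untreated cells. Filled points passed at an adjusted p below 0.01 and open points did not. In the cell death panel 7 of 11 genes rose after GO-Rg3-DOX, beside 25.5% of all tested genes. Of the 7, 2 remained with library totals alone, where 2152 of the 17092 tested genes rose. BBC3 lies at 1.58 after GO and at -1.34 after GO-Rg3-DOX.

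Of 11 tested genes of a list of regulators of p53, MDM4 included, 3 rose and 4 fell after GO-Rg3-DOX (median 0.12), near the 25.5% and 30.5% of all tested genes. With library totals alone 1 rose and 5 fell (median -0.29), beside 2152 and 7293 of the 17092 tested genes. With the GC offset 5 rose and 2 fell (median 0.35), beside 5312 and 4783 of the tested genes. PRKDC, the catalytic subunit of the DNA-dependent protein kinase, rose by 0.91 (SE 0.14, adjusted p = 2.91e-05), a call lost with library totals alone (adjusted p = 0.0132). CDKN2A, the locus of p16 and of the MDM2 inhibitor ARF, rose by 0.86 (SE 0.14, adjusted p = 6.66e-05). After GO 1 rose and 2 fell, near the 12.1% and 15.4% of all tested genes. In the comparisons of GO-Rg3 with untreated cells and with GO 0 of 11 passed in edgeR's test. In the same order, 4 and 4 were at an unadjusted p under 0.05 and DESeq2 called 0 and 1. Of all tested genes, 0.0585% rose and 0.105% fell between GO-Rg3 and untreated cells. Between GO-Rg3 and GO 7.33% were higher and 6.25% lower.

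Of 6 tested relatives of the 9 genes, 2 rose and 1 fell after GO-Rg3-DOX, near the 25.5% and 30.5% of all tested genes. With library totals alone 1 rose and 1 fell, beside 2152 and 7293 of the 17092 tested genes. With the GC offset 4 rose and 1 fell, beside 5312 and 4783 of the tested genes. GADD45B went from 17.7 ± 1.84 to 64.9 ± 5.89 CPM (SD, n = 3), a log2 fold change of 1.87 (SE 0.15, adjusted p = 3.07e-08), while GADD45A fell by 0.47. CDKN1B, which encodes p27, fell by 1.01 (SE 0.14, adjusted p = 1.76e-05), while CDKN1A did not pass. RRM1, the large subunit of ribonucleotide reductase, rose by 0.54 (SE 0.09, adjusted p = 0.000109), a call lost with library totals alone (0.12), while RRM2B fell.

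The 4 genes below -1 after GO-Rg3-DOX were longer and had a lower GC content than TP53I3, CDKN1A and GADD45A. Their spans, on the GRCh37 build from a lifted annotation, were 37.4 kb for MDM2, 66.1 kb for PPM1D, 110.5 kb for SESN1 and 112.1 kb for ZMAT3, and the GC contents of their canonical transcripts were 39.5%, 45.03%, 40.6% and 38.2%. TP53I3 and CDKN1A, at 8.43 and 10.9 kb and 59.4% and 57.3% GC, were the 2 with values above 0. The tested genes as a whole were ordered in the same way in this comparison and also after GO. Their median log2 fold change after GO was -0.40 below 40% GC and 0.31 at 55% GC or more. After GO-Rg3-DOX it was -0.55 below 40% GC, where 48.9% fell, and 0.53 at 55% GC or more, where 46.3% rose. By span it was 0.15 below 10 kb and -0.27 at 100 kb or more.

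Against genes of like GC content, MDM2, PPM1D, SESN1 and ZMAT3 still lay below the lower quartile of their bin, which was -1.17 below 40% GC, -1.001 from 40% to 45% and -0.82 from 45% to 50%. RRM2B, at 35.1% GC and -0.77, and TP53I3, at 0.49, lay within the quartiles. With the GC offset in the model 5 of the 8 genes fell and 0 rose, when 4783 of the 17092 tested genes fell and 5312 rose. Only PPM1D stayed below -1, at -1.34 (adjusted p = 3.74e-08). SESN1 was then at -0.84 and ZMAT3 at -0.68, with adjusted p-values of 1.21e-05 and 0.00022. The median of all tested genes was 0.08 in that fit, and the part of gene length in these differences was not tested.

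**Figure D5:**
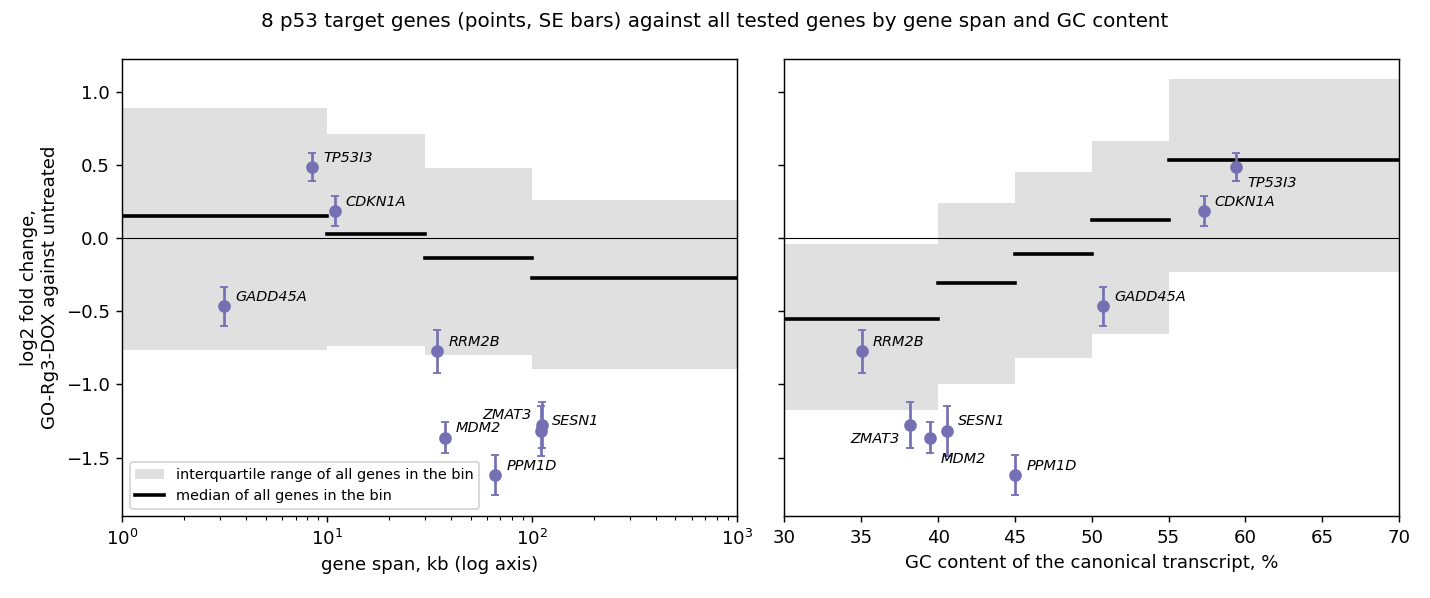
Log2 fold change after GO-Rg3-DOX against untreated cells (y axis) for the 8 tested p53 targets (points, bars of 1 standard error) by gene span in kb (left, log axis) and by GC content of the canonical transcript in percent (right). Black lines and grey boxes are the median and interquartile range of all tested genes in each bin. MDM2, PPM1D, SESN1 and ZMAT3 lie below the grey boxes in both panels, and RRM2B and TP53I3 lie within them.

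To order the genes by level, CPM was divided by the length of the canonical transcript, which was possible for the 8 tested genes. In untreated cells GADD45A was highest, at 11.97 ± 0.564 CPM per kb (SD, n = 3), then TP53I3 at 11.4 ± 0.335 and CDKN1A at 10.5 ± 0.374. RRM2B (5.72), MDM2 (5.41), PPM1D (4.24), SESN1 (1.88) and ZMAT3 (1.44 CPM per kb) followed. The neighbours GADD45A and TP53I3, and RRM2B and MDM2, overlapped between samples, and all other neighbours were apart. After GO-Rg3-DOX TP53I3 led with 15.99 ± 0.423 CPM per kb, followed by CDKN1A at 11.9 ± 0.809 and GADD45A at 8.65 ± 1.34. RRM2B (3.35) was next, then MDM2 (2.10), PPM1D (1.38), SESN1 (0.754) and ZMAT3 (0.594), and only SESN1 and ZMAT3 overlapped.

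Over the 12 samples the log2 levels of MDM2 were most alike those of PURB, GON4L and VHL, each with a Pearson correlation of 0.99, among 8961 genes of at least 10 CPM on average. For CDKN1A the most alike were KIF22, ACOX2 and CDCA3, at 0.87, 0.87 and 0.86. The 12 samples fall into 4 treatment groups that share a line and a library preparation, so these are descriptions of a shared pattern over groups.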

How the data were processed

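The authors prepared strand-specific libraries from polyadenylated RNA, aligned reads to GRCh37 and used featureCounts for the counting. What was deposited is a table of whole, raw counts for 63677 genes in 12 samples, with no normalization. The annotation release and the strand setting are not given in the sources used here, so overlapping genes are uncertain. Counts per sample were 27802871 to 38877420, and as reads carry no molecular identifiers, depth speaks for counting error only.

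From these counts, genes that reached 10 counts in 3 or more samples (17092) were scaled by TMM and fitted in 1 model of all 12 samples with the quasi-likelihood test of edgeR 4.0.16 (R 4.3.3), with Benjamini-Hochberg adjustment over all genes and a threshold of 0.01. Standard errors are the absolute log2 fold change over the square root of the test's F, and a prior count of 2 was used for log2 levels. The study's methods name DESeq2 and no block; DESeq2 1.42.0 was an alternative, and the others are listed with their effect in the closing section. GC content was known for 16310 tested genes (95.4%). Gene spans, transcripts and p53 elements came from the GRCh37 genome and an annotation lifted to it. The steps were tested on simulated data. Python 3.11.15 with pandas 2.3.3 assembled the tables.

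The 9 genes and the 5 gene lists were chosen with earlier results of these data known. Named from the lists were MDM4 and, in each list, the 3 genes with the largest absolute log2 fold change among those past the test after GO-Rg3-DOX, and, chosen after their values were seen, the 11 other targets past the test after GO; the 3 genes most alike MDM2 and CDKN1A were taken from those of at least 10 CPM. 1 gene of the lists is not reported here.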

Additional observations from a re-analysis of the deposited data

How the results depend on the processing

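The alternatives were DESeq2, RLE scaling, scaling by library totals alone, testing all 35604 genes with a count above 0, a stricter filter (10 counts in all samples, 13706 genes), a replicate block, an offset for GC content with and without the replicate block, a fit of only the 6 samples compared, and each sample left out in turn. The 75 counts of genes past the test under these alternatives took rises and falls together. Of them, 60 stayed within 1.5 times the main count, among them every one for GO-Rg3-DOX. Such counts do not show direction or size. After GO-Rg3-DOX the 10 rises and 7 falls of the 26 other targets became 4 and 12 with library totals alone. For the 8 genes, 1 rise and 6 falls became 0 and 5 with the GC offset. The genes below -1 went from 4 to 1 there. For GO the count of 1 became 3 with the GC offset and 3 with GC offset and block. For GO-Rg3 the count of 0 became 1 without the filter, with the block, with the GC offset, with both and in DESeq2, each time CDKN1A. Between GO-Rg3 and GO the count of 1 became 0 with library totals alone and in the fit of 6 samples, and 2 without the filter, with the block, with the GC offset, with both and in DESeq2; it was 1 to 2 with single samples left out, and 2 without GO replicate 2.

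Of 914 log2 fold changes of named genes, 809 kept direction and call, 15 passed that had not, 49 no longer passed and 41 changed sign. With library totals alone the values that changed sign were CDKN1A after GO (-0.06) and after GO-Rg3-DOX (-0.23), TP53I3 after GO (-0.044), RRM2B after GO-Rg3 (0.0079) and MDM2 between GO-Rg3 and GO (0.11). With the GC offset, and in the same order with offset and block, they were CDKN1A after GO (-0.16 and -0.16) and after GO-Rg3-DOX (-0.085 and -0.089), TP53I3 after GO (-0.19 and -0.19), SESN1 after GO (0.063 and 0.053) and after GO-Rg3 (0.023 and 0.020), ZMAT3 after GO (0.21 and 0.20), and RRM2B after GO (0.33 and 0.34) and after GO-Rg3 (0.073 and 0.072). Between GO-Rg3 and GO they were TP53I3 (0.082 and 0.083), SESN1 (-0.040 and -0.033) and RRM2B (-0.26 and -0.26). RRM2B after GO-Rg3 was also 0.0099 with RLE scaling, 0.0099 in DESeq2 and 0.048 in the fit of 6 samples, where SESN1 was 0.0088, and GADD45A between GO-Rg3 and GO was -0.016 with the stricter filter. With samples left out in turn the signs turned within -0.12 to 0.031 for SESN1 and -0.11 to 0.038 for RRM2B after GO-Rg3, -0.22 to 0.035 for RRM2B after GO, and, between GO-Rg3 and GO, -0.10 to 0.017 for MDM2, -0.080 to 0.13 for GADD45A and -0.054 to 0.20 for RRM2B. The cause of these changes was not tested.

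The replicate numbers of the labels were shared by the groups but were not taken to pair the samples, because the labels do not say what a number stands for and not every pair of the same number deviated together: deviations from the group means correlated at 0.091 on average between samples of the same number (-0.024 to 0.253, 18 pairs) and at -0.045 between others, and 10 of 12 samples correlated best with their own number, a hint from the data that the labels do not give. The replicate block raised the calls over all genes after GO from 2074 and 2639 to 2601 rises and 3190 falls, and changed calls of the 9 genes only for CDKN1A after GO-Rg3 (adjusted p = 0.0085) and PPM1D between GO-Rg3 and GO (adjusted p = 0.00639). Over all genes, the 10 rises and 18 falls after GO-Rg3 became 18 and 66 under the replicate block, 52 and 90 under the GC offset, 72 and 259 in DESeq2 and 5 and 25 with library totals alone. Library totals alone also gave 1223 rises after GO, 2152 rises in place of 4350 after GO-Rg3-DOX, and 489 lower calls in place of 1068 between GO-Rg3 and GO, where DESeq2 gave 1948 higher calls in place of 1253.

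With 3 samples a group, a gene that did not pass cannot be taken as unchanged, even where its difference was several standard errors. CDKN1A after GO-Rg3, for example, did not pass in the main fit at -0.58 (SE 0.10). For FAS, with at most 9 counts a sample, depth is the limit. Spans and GC values come from a lifted annotation that can differ from the one used for counting.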
